A study of Mus musculus with 4 samples.

Results

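A set of 10 genes of the Notch pathway was followed in 4T07 cells. The genes were 3 ligands (Dll1, Jag1, Jag2), 3 receptors (Notch1, Notch2, Notch3) and 4 targets or modifiers of the signal (Hes1, Lfng, Nrarp, Dtx4). They were picked by symbol, with their levels in these same libraries known, and all 10 were found among the 24421 genes of the table. 4T07 is a mouse mammary carcinoma line of strain Balb/cfC3H. RNA was sequenced from 2 libraries of cells labelled as overexpressing Six2, a homeobox transcription factor, and from 2 libraries of control cells. All were untreated and were harvested 48 hours after plating, and no label states the vector, the promoter or the clonality of the cells. The labels do not say whether replicates were separate cultures, so the spread between them may be technical.

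Notch receptors are single-pass membrane proteins that are activated by ligands of the Delta and Jagged families on a neighbouring cell. Ligand binding lets ADAM proteases and then gamma-secretase cut the receptor, and the freed intracellular domain enters the nucleus, where it joins the DNA-binding protein RBPJ and Mastermind coactivators. Hes1 and Nrarp are among the genes that this complex switches on, and their products feed back on the signal. In the mouse mammary gland, Notch signalling is known for its role in luminal cell fate.

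Levels are in RPKM, which divides reads by the length of the gene and the size of the library, so that they can be compared between genes. The read totals recovered from them ran from 49910629 to 81524250 in the Six2-labelled libraries and from 41881864 to 43110985 in the control libraries. Six2 itself was at 0.0285 RPKM in Six2 replicate 1, about 3.02 reads at its annotated exon length, and at 0 in Six2 replicate 2 and both control libraries. Overexpression of Six2 is thus not visible in these values, and the groups are called by their labels. Of the markers of the labelled cell type, Krt8, Krt18 and Vim were abundant, while Epcam, Krt5 and Krt14 stayed under 1 RPKM in all 4 libraries. Cdh1 was at 0.186 and 0.103 RPKM in the Six2-labelled libraries and at 14.6 and 8.403 RPKM in control libraries. Summed over 6 endothelial markers, the level was 0.0508 and 0.0157 RPKM in the Six2-labelled libraries and 0.144 and 0.0625 RPKM in control libraries. The 5 pericyte markers summed to 10.4 and 4.78 RPKM in the Six2-labelled libraries and to 6.22 and 2.43 RPKM in control libraries, and of them Rgs5 alone reached 1 RPKM. Rgs5 made up most of that sum, and Acta2 and Pdgfrb went the other way. Acta2 was at 0 in both Six2-labelled libraries and at 0.586 and 0.566 RPKM in control libraries. Pdgfrb was at 0.0333 and 0.0204 RPKM in the Six2-labelled libraries and at 0.279 and 0.0970 RPKM in control libraries. The 7 leukocyte markers summed to 9.29 and 5.02 RPKM for Six2 and to 12.5 and 7.63 RPKM for control, with Cd68 alone reaching 1 RPKM. The 6 fibroblast markers summed to 7.40 and 5.16 RPKM in the Six2-labelled libraries and to 9.64 and 5.18 RPKM in control libraries, with Pdgfra alone reaching 1 RPKM. The part of such cells in the results was not tested.

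Mean levels in the Six2-labelled libraries were less than those in control libraries by the widest margins for Dll1, a ligand gene, Nrarp, Lfng and Dtx4. Of these, Dll1 alone was called lower in the fit over all genes, which it entered through its control libraries alone. The genes were picked with these levels known, so the call is a description and no test of them. Jag2 and Notch2 also had both Six2-labelled libraries under both control libraries, by less on the log2(RPKM + 1) scale, and the groups overlapped for Notch1. The promoter windows of 3 of these genes are shown because the levels of Dll1, Lfng and Nrarp were low together in the Six2-labelled libraries. The windows come from RefSeq on GRCm38.p6 and run from 250 bases before to 50 bases after an annotated start, 5′ to 3′ along the gene. Dll1 has an upstream and a downstream start. Capitals mark matches to TGGGAA, the core of the RBPJ motif, on either strand, and to the longer form GTGGGAA, which contains the core.
Dll1, upstream start, chr17:15376883-15377182, minus strand: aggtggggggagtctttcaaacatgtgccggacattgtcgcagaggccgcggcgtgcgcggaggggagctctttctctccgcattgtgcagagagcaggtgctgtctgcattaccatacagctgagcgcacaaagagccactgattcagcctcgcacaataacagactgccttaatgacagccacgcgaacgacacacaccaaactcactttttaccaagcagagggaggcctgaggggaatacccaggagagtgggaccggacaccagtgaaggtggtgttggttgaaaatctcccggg
Dll1, downstream start, chr17:15375774-15376073, minus strand: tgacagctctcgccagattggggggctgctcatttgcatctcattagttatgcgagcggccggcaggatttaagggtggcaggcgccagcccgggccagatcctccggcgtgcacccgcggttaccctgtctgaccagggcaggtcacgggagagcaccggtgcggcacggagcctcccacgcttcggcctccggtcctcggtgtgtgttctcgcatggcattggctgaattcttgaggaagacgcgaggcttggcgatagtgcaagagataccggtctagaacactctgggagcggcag
Lfng, chr5:140607091-140607390, plus strand: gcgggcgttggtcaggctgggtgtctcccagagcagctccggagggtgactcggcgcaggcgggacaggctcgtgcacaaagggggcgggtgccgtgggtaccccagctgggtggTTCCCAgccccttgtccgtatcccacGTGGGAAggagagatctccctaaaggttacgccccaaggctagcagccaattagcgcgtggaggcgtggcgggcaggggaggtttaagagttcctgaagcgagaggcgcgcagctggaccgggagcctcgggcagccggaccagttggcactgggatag
Nrarp, chr2:25180508-25180807, plus strand: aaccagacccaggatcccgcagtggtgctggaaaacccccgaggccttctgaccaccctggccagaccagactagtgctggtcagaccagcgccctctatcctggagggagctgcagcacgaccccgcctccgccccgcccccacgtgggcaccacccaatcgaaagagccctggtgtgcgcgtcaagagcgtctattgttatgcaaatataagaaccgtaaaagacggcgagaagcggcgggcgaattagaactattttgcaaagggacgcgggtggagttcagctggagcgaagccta

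Windows were found for 8 of the 10 genes, 9 windows in all, and not for Hes1 and Dtx4. Lfng was the one gene of the 8 whose window held TGGGAA. It had the match at -135 on the opposite strand and at -108 on the same strand, counted from the start to the leftmost base of the match. The second of these was part of GTGGGAA at -109. Over all 32851 windows of that length, 25.56% held TGGGAA and 6.38% held GTGGGAA. The N box CACNAG, a motif of HES repressors, was in the windows of 6 of the 8 genes (upstream Dll1, Notch1, Notch2, Notch3, Lfng and Nrarp), and in 42.48% of all windows. TCANGTTTC, a motif of the family of Six2 searched on both strands, was in 0 of the 9 windows and in 1.08% of all windows. The share of G and C in the windows of the 8 genes ran from 55.7% in Jag1 to 86.0% in Jag2. Over all windows the median was 52.7% and the 90th percentile 69.7%, which only Notch2, Notch3 and Jag2 exceeded. A match is a run of letters, and its absence says only that the letters are not in that window.

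Among the ligands, Dll1 was far lower in the Six2-labelled libraries, Jag1 overlapped between the groups and Jag2 was barely detected. Dll1 (ENSMUSG00000014773.13, GRCm38 chromosome 17, 15367354 to 15376872, minus strand) encodes Delta-like 1. It had 0.912 and 0.859 RPKM in the Six2-labelled libraries, which are 156 and 240 reads, against 6.58 and 7.61 RPKM, or 972 and 1093 reads, in control libraries. Both Six2-labelled libraries lay far under both control libraries, and within each group the replicates were close. The means were 0.885 ± 0.0375 RPKM in the Six2-labelled libraries and 7.10 ± 0.732 RPKM in control libraries (SD, n = 2 each), a ratio of 8.01 of control over Six2. In bulk RNA, fewer cells that express a gene and less of its RNA per cell cannot be told apart.

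Jag1 (chromosome 2, 137081456 to 137116644), which encodes Jagged1, had 1.09 and 2.92 RPKM in the Six2-labelled libraries, against 2.42 and 4.88 RPKM in control libraries. Six2 replicate 2 lay above control replicate 1, so the groups overlapped. Between libraries of the same replicate number, the Six2-labelled one was lower both times. The higher replicate was 2.67 times the lower within the Six2-labelled libraries and 2.01 times within the control libraries, more than the 1.82 times by which the control mean exceeded the Six2 mean. Jag2, the other Jagged gene, had 0.0692 and 0.0696 RPKM in the Six2-labelled libraries, from 14 and 23 reads, against 0.177 and 0.1001 RPKM in control libraries, from 31 and 17 reads. Its groups did not overlap, but at so few reads counting error alone is large.

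**Figure D1:**
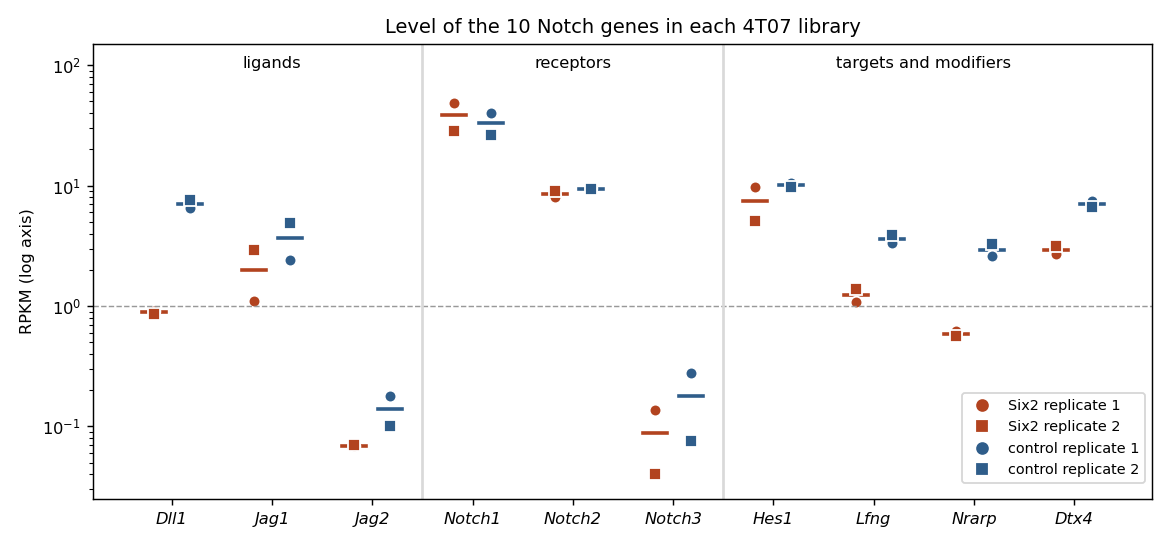
RPKM (log axis) of the 10 Notch genes in the 2 Six2-labelled libraries (red, left of each pair) and the 2 control libraries (blue, right), with circles for replicate 1, squares for replicate 2, a bar at each group mean, and a dashed line at 1 RPKM. Dll1, Lfng, Nrarp and Dtx4 are lower in both Six2-labelled libraries with replicates close together, while Notch1 and Jag1 spread more within a group than between the groups.

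The groups overlapped in the summed ligand level and not in the share of Dll1. The 5 Delta and Jagged genes Dll1, Dll3, Dll4, Jag1 and Jag2 summed to 11.6 ± 3.71 RPKM in the Six2-labelled libraries and 15.6 ± 2.67 RPKM in control libraries (SD, n = 2 each). Control replicate 1, at 13.7 RPKM, lay under Six2 replicate 1, at 14.2 RPKM, so the sums overlapped. Dll1 made up 6.40% and 9.56% of the sum in the Six2-labelled libraries, against 48.1% and 43.6% in control libraries. Dll1 was therefore the largest share in both control libraries and a small one in both Six2-labelled libraries.

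Dll4, a Delta-like ligand best known from endothelium and not 1 of the 10 genes, took the largest share in the Six2-labelled libraries. It made up 85.4% and 57.1% of the sum there, against 32.8% and 27.8% in control libraries. Its level was 12.2 and 5.13 RPKM in the Six2-labelled libraries, against 4.49 and 4.86 RPKM in control libraries. Six2 replicate 1 stood apart, and Six2 replicate 2 lay just above the higher control library. In the limma fit over all genes the difference of log2(RPKM + 1) for Dll4 was 0.66 (SE 0.39, adjusted p = 0.466). The share of Jag1 was 7.69% and 32.5% in the Six2-labelled libraries and 17.7% and 28.0% in control libraries. These shares are of RNA and have no test.

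**Figure D2:**
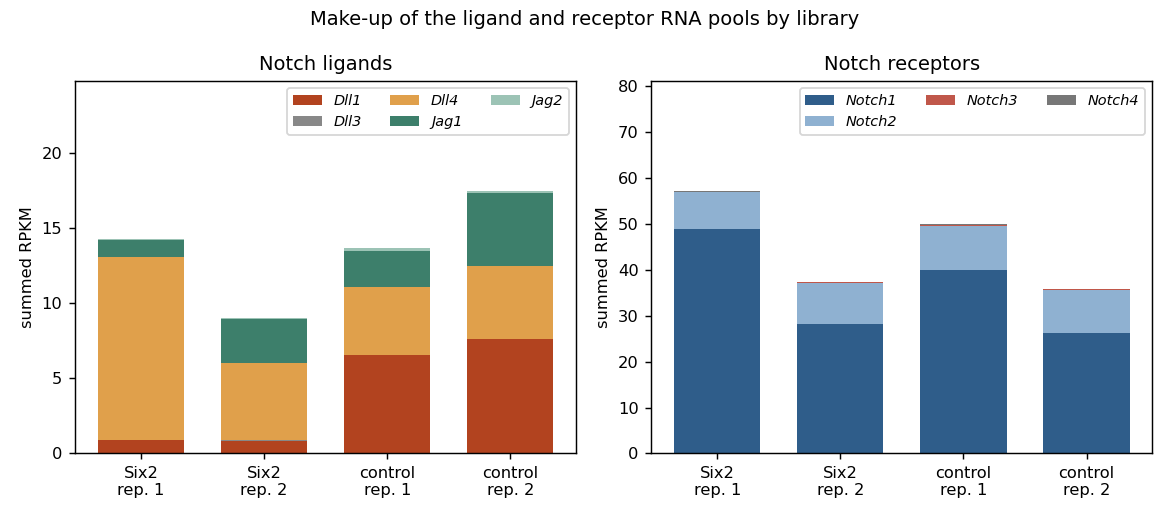
Summed RPKM of the Delta and Jagged ligand genes (left panel) and of the 4 Notch receptor genes (right panel) in each library, Six2 before control, with each colour the RPKM of 1 gene. Dll1 fills 6.40% and 9.56% of the ligand sum in the Six2-labelled libraries and 48.1% and 43.6% in control libraries, while Notch1 is the largest part of the receptor sum in all 4.

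Among the receptors, Notch1 dominated in every library, and its levels overlapped between the groups. Notch1 (ENSMUSG00000026923.15, chromosome 2, 26457903 to 26516663, minus strand) had 48.8 and 28.2 RPKM in the Six2-labelled libraries, against 40.0 and 26.3 RPKM in control libraries. Replicate 1 was the higher library in each group, and the groups overlapped. Between libraries of the same replicate number, the Six2-labelled one was higher both times, but the labels do not say what a number shares. The means were 38.5 ± 14.6 RPKM in the Six2-labelled libraries and 33.2 ± 9.70 RPKM in control libraries (SD, n = 2 each). Notch1 made up 85.4% and 75.3% of the receptor sum in the Six2-labelled libraries and 80.2% and 73.4% in control libraries.

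Notch2 (chromosome 3, 98013527 to 98150361), the second receptor by level, had 8.05 and 9.08 RPKM in the Six2-labelled libraries, against 9.47 and 9.37 RPKM in control libraries. Both Six2-labelled libraries were lower, by a small amount, with a ratio of 0.909 of Six2 over control. The gene lies on chromosome 3, whose tested genes had a median difference of 0.21 on the log2(RPKM + 1) scale; the difference of Notch2 was -0.13, and -0.34 once that median was taken off. Notch3, a receptor best known from vascular smooth muscle and pericytes, had 0.136 and 0.0402 RPKM in the Six2-labelled libraries, against 0.280 and 0.0752 RPKM in control libraries. Notch3 stood at 54 and 26 reads against 96 and 25 reads, and the groups overlapped. Its replicates differed 3.39 times within the Six2-labelled libraries and 3.73 times within the control libraries. Between libraries of the same replicate number, its RPKM was lower in the Six2-labelled one both times. Notch4, which is not 1 of the 10 genes, had 0.140 and 0.141 RPKM in the Six2-labelled libraries and 0.137 and 0.0795 RPKM in control libraries.

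Among the 4 targets and modifiers, Nrarp was the lowest relative to control, followed by Lfng and Dtx4, and Hes1 overlapped between the groups. Nrarp (ENSMUSG00000078202.3, chromosome 2, 25180758 to 25183339, plus strand) encodes a small ankyrin repeat protein that binds the Notch intracellular domain and limits its activity. It had 0.615 and 0.562 RPKM in the Six2-labelled libraries, from 79 and 118 reads, against 2.59 and 3.28 RPKM, from 287 and 354 reads, in control libraries. The groups lay well apart, and the ratio of the control mean over the Six2 mean was 4.99.

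Lfng (ENSMUSG00000029570.5, chromosome 5, 140607320 to 140615545, plus strand) encodes Lunatic fringe, a glycosyltransferase that extends sugars on the receptor and changes which ligands it answers to. It had 1.09 and 1.38 RPKM in the Six2-labelled libraries, against 3.35 and 3.86 RPKM in control libraries. No library of one group reached the other, and the ratio of the control mean over the Six2 mean was 2.92. Of its relatives in the fringe family, Rfng was at 11.8 and 10.97 RPKM in the Six2-labelled libraries and at 11.8 and 10.8 RPKM in control libraries, and Mfng was at 0 in all 4.

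Dtx4 (ENSMUSG00000039982.8, chromosome 19, 12466338 to 12501454, minus strand) encodes a Deltex-family ubiquitin ligase. It had 2.68 and 3.12 RPKM in the Six2-labelled libraries, against 7.46 and 6.60 RPKM in control libraries. The groups did not overlap, and the ratio of the control mean over the Six2 mean was 2.42. Hes1 (ENSMUSG00000022528.8, chromosome 16, 30064384 to 30067796, plus strand) encodes a repressor of the basic helix-loop-helix class and is the classical Notch target. It had 9.79 and 5.05 RPKM in the Six2-labelled libraries, against 10.6 and 9.68 RPKM in control libraries. Six2 replicate 2 was the low library, and Six2 replicate 1 lay between the 2 control libraries. Between libraries of the same replicate number, the Six2-labelled one was lower both times. The difference of Hes1 was -0.46 on the log2(RPKM + 1) scale with all 4 libraries. With 1 library left out it ran from -0.04 without Six2 replicate 2 to -0.88 without Six2 replicate 1. Replicate 1 was the higher library of Hes1 in each group, and leaving out 1 library unbalances the replicate numbers.

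By mean level, the order in the Six2-labelled libraries was Notch1, Notch2, Hes1, Dtx4, Jag1, Lfng, Dll1, Nrarp, Notch3 and Jag2. In control libraries it was Notch1, Hes1, Notch2, Dll1, Dtx4, Jag1, Lfng, Nrarp, Notch3 and Jag2. Neighbours whose libraries overlapped in the Six2-labelled libraries were Notch2 and Hes1, Dtx4 and Jag1, Jag1 and Lfng, and Notch3 and Jag2. In control libraries they were Dll1 and Dtx4, Jag1 and Lfng, and Notch3 and Jag2. Dll1 stood at rank 7 in the Six2-labelled libraries and at rank 4 in control libraries, the largest shift of place among the 10.

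The values of the 10 genes in this comparison were used to choose them, so counts over them are a description. The test took genes that reached 1 RPKM in 2 or more libraries, and 8 of the 10 entered it, without Jag2 and Notch3. Dll1 and Nrarp entered through their control libraries alone, since both Six2-labelled libraries were under 1 RPKM. With limma and Benjamini-Hochberg adjustment over 10654 genes, 1 of the 8 was called lower at 0.05, which was Dll1, and 0 were called higher. Nrarp (adjusted p = 0.0904), Dtx4 (adjusted p = 0.0983) and Lfng (adjusted p = 0.102) did not pass in that limma fit. Over all tested genes 0.0845% were called lower and 0.0282% higher. The call of Dll1 was lost without control replicate 1 (adjusted p = 0.0577), with chromosome medians removed (adjusted p = 0.0521) and with no filter on low values (adjusted p = 0.103). The groups did not overlap, with Six2 lower, for 5 of the 8, against 25.5% of all tested genes. For 4 of them, Dll1, Nrarp, Lfng and Dtx4, the log2 difference was also -1 or less, against 1.88% of all tested genes.

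On the log2(RPKM + 1) scale, where the added 1 shrinks the change of genes of low level, the differences of Six2 minus control were -2.10 for Dll1, -1.30 for Nrarp, -1.04 for Lfng and -1.04 for Dtx4. The SD within groups on the same scale was 0.09 for Dll1, 0.13 for Nrarp, 0.12 for Lfng and 0.11 for Dtx4. Each of these differences was larger than its SD, which rests on 2 libraries per group. The genes were picked with these values known, so that is a description and no test. The differences were -0.65 for Jag1, -0.46 for Hes1 and 0.19 for Notch1. For Jag1, Hes1 and Notch1 the SD within groups was 0.60, 0.42 and 0.49. Notch1 changed sign with the library left out, from -0.20 without Six2 replicate 1 to 0.57 without Six2 replicate 2. Jag1 ran from -0.19 without Six2 replicate 1 to -1.10 without Six2 replicate 2. In each group, replicate 1 was the higher library for Notch1 and replicate 2 for Jag1. Leaving out 1 library unbalances the replicate numbers, so these ranges cannot separate group from replicate number.

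**Figure D3:**
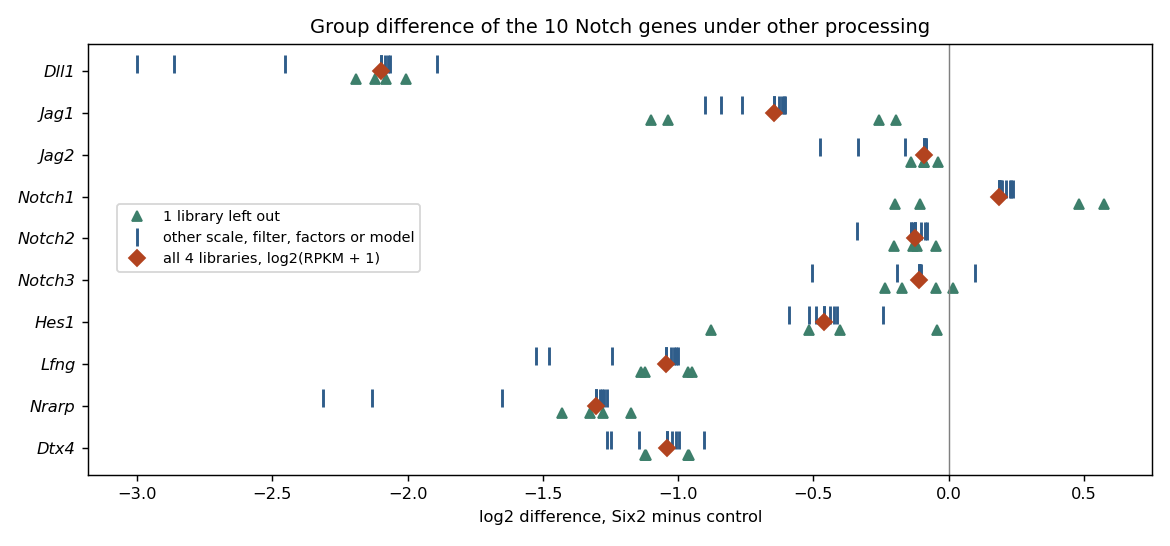
Log2 difference of Six2 minus control for each of the 10 genes (horizontal axis) with all 4 libraries on the log2(RPKM + 1) scale (red diamonds), with 1 library left out (green triangles) and under other scales, filters, factors or models (blue ticks). Dll1, Nrarp, Lfng and Dtx4 stay at -0.91 or lower throughout, while Notch1 and Notch3 lie on both sides of 0.

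The genes lay on 7 chromosomes, so their levels were set beside the median difference of each chromosome. Dll1 and Notch3 lie on chromosome 17, whose tested genes had a median of -0.21, and the difference of Dll1 without it was -1.89. Hes1 lies on chromosome 16, with a median of -0.22, and its difference without it was -0.24. Nrarp, Notch1 and Jag1 lie on chromosome 2, with a median of -0.04, and differed by -1.26, 0.23 and -0.60 without it. Lfng on chromosome 5 and Dtx4 on chromosome 19 differed by -1.0 and -0.91 without medians of -0.04 and -0.13. The cause of the chromosome-wide medians was not tested.

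Annotated genes on the opposite strand overlap exons of 4 of the 10. They share 867 exon bases with Dll1, 488 with Notch3 and 2051 of the 2582 exon bases with Nrarp, and 2 such genes share 1068 and 414 bases with Notch1. The labels' kit marks strand, but no label or header says whether reads were counted by strand. If they were not, reads of these partners cannot be told apart from those of the named genes. Gm42820, annotated on the same strand as Notch2, shares 541 exon bases with it, which counting by strand would not separate.

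No other gene of the pathway was called in the fit on group alone. Of 82 further genes of the pathway, 62 were tested, and 0 were called higher and 0 lower by limma at an adjusted p of 0.05, where 0.0282% and 0.0845% of all genes were. At an unadjusted p under 0.05, 5 were higher and 5 lower, where 7.36% and 9.66% of all tested genes were. The limma-voom fit on recovered reads also called 0 and 0 of the 62. Their median log2 difference was 0.01, beside -0.01 over all tested genes. The groups did not overlap for 13 with Six2 higher and 11 with Six2 lower, where the shares over all genes were 21.9% and 25.5%.

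Most other genes of the HES and HEY families, to which Hes1 belongs, were close to silent in all libraries. Hes5 and Heyl were at 0 throughout, and Hes2, Hes3 and Hey2 did not pass 0.011 RPKM in any library. Hes7 was at 0.0208 and 0.0636 RPKM in the Six2-labelled libraries and 0.0962 and 0.0991 RPKM in control libraries. Hey1 was at 0.409 and 0.1001 RPKM in the Six2-labelled libraries and 0.221 and 0.206 RPKM in control libraries. Hes6, which was expressed, had 7.19 and 5.37 RPKM in the Six2-labelled libraries and 8.24 and 4.81 RPKM in control libraries. Its limma difference was -0.02 (SE 0.28, adjusted p = 0.979).

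Of the non-canonical ligand genes, Dlk2 had 2.73 and 5.02 RPKM in the Six2-labelled libraries and 3.82 and 5.55 RPKM in control libraries, with a limma difference of -0.25 (SE 0.30, adjusted p = 0.735). Dner was at 0.0827 and 0.0912 RPKM in the Six2-labelled libraries and 0.121 and 0.0592 RPKM in control libraries. Dlk1 was at 0 in all libraries, and Dll3 was at 0.00926 and 0.00567 RPKM in the Six2-labelled libraries and at 0 in control libraries.

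Rbpj, the DNA-binding partner of the Notch intracellular domain, was at 78.8 and 83.3 RPKM in the Six2-labelled libraries and at 124 and 110 RPKM in control libraries. The groups did not overlap, but the difference of -0.52 (SE 0.10) did not pass over all genes with limma (adjusted p = 0.152). Of the nuclear complex list 8 of 10 were tested, with a median difference of 0.05. Its other abundant genes were the acetyltransferase gene Kat2a, at a difference of 0.08, and Snw1, at 0.23. All 14 corepressor genes were tested, with a median of -0.11. The deacetylase genes Hdac1 and Hdac2 differed by -0.01 and -0.12 and Ctbp1 by 0.02.

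Genes of receptor cleavage had a median difference of 0.20 over the 9 tested of 10, and 5 of the 9 had groups that did not overlap, all with Six2 higher, where 21.9% of all tested genes were. Ncstn, which encodes the gamma-secretase subunit nicastrin, had 55.2 and 47.7 RPKM in the Six2-labelled libraries and 39.5 and 36.5 RPKM in control libraries. Its limma difference was 0.42 (SE 0.12, adjusted p = 0.206). Psenen, another subunit gene, differed by 0.07, and Adam10, the gene of an ADAM protease that cuts the receptor after ligand binding, by 0.09. Psen2, a presenilin gene named after its values were seen, had 4.16 and 3.90 RPKM in the Six2-labelled libraries and 2.40 and 2.18 RPKM in control libraries, with a limma difference of 0.61 (SE 0.12, adjusted p = 0.144).

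Genes that modify or carry receptors and ligands had medians close to 0. Of 8 glycosyltransferase genes 6 were tested, with a median of 0.03, and Pofut1, which adds the fucose that Lunatic fringe extends, differed by 0.11. Poglut1 differed by 0.06 and Rfng by 0.004. Of 18 genes of ubiquitin ligases and endocytosis 15 were tested, with a median of 0.002, and Nedd4, Epn1 and Ap2a1 differed by -0.14, -0.004 and -0.0003.

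Among 8 genes reported as downstream targets 7 were tested, with a median of 0.18. Ccnd1, the cyclin D1 gene, was at 588 and 673 RPKM in the Six2-labelled libraries and at 592 and 661 RPKM in control libraries. Sox9 differed by 0.23. Cdkn1a, which encodes the cell cycle inhibitor p21, had 84.4 and 52.6 RPKM in the Six2-labelled libraries and 37.1 and 28.6 RPKM in control libraries. The groups did not overlap, and its limma difference of 1.01 (SE 0.27) did not pass over all genes (adjusted p = 0.203).

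**Figure D4:**
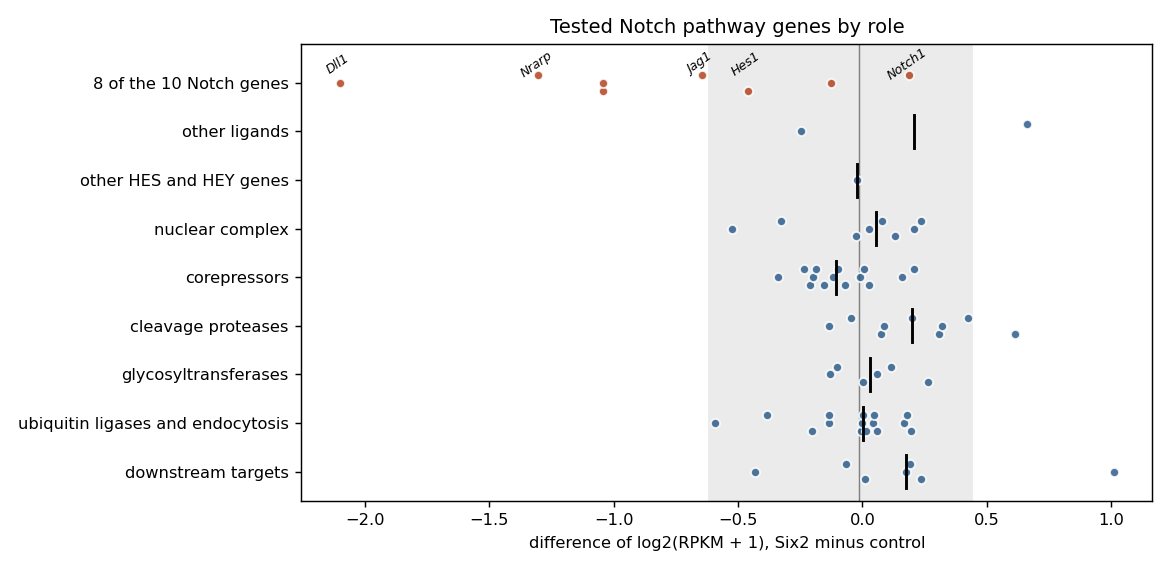
Difference of log2(RPKM + 1), Six2 minus control, for each tested gene (dots) of the Notch pathway by role, with the 8 tested of the 10 Notch genes at the top in red and the other lists in blue, each with a black bar at its median. The grey band runs from the 5th to the 95th percentile of all tested genes, -0.62 to 0.44. Dll1 at -2.10, Nrarp at -1.30, Lfng and Dtx4 at -1.04 and Jag1 at -0.65 lie to its left. Of the other lists, Cdkn1a at 1.01, Dll4 at 0.66 and Psen2 at 0.61 lie to its right. The 10 genes were picked with their values known, and Dll1 and Nrarp were tested through their control libraries alone.

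For 3 members, the genes with the most similar profile were sought by the smallest Euclidean distance between log2(RPKM + 1) values centred on each gene's mean, over the 4 libraries. For Dll1 they were Kctd12b, Sbsn and Cdcp1, at distances of 0.220, 0.235 and 0.359, where the median over all tested genes was 2.11. For Nrarp they were Havcr2, Gm10439 and Hip1r, at distances of 0.0931, 0.204 and 0.233 (median 1.33). Havcr2 was at 0.434 and 0.450 RPKM in the Six2-labelled libraries and at 2.48 and 3.05 RPKM in control libraries. For Notch1 they were Fam188b, Gas7 and Sqstm1, at distances of 0.0283, 0.0427 and 0.0439 (median 0.767). All 3 were higher in replicate 1 of each group, as Notch1 was, with Gas7 at 25.8 and 14.6 RPKM in the Six2-labelled libraries and 21.8 and 13.8 RPKM in control libraries. A gene that is flat over the 4 libraries lies at a distance set by the member's own spread. The medians therefore largely restate the spread of each member and do not show that the nearest genes are unusually similar. Kctd12b, Cdcp1 and Havcr2 entered the test through their control libraries alone. With 4 libraries, such distances describe these samples only.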

How the data were processed

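Polyadenylated RNA of 4 libraries was measured by RNA-seq, from a TruSeq stranded kit per the labels' protocols. The submitters' processing notes list HTSeq 0.8.0, TopHat2 2.1.1, Bowtie2, Picard 2.9.4 and SAMtools 1.5 beside FastQC 0.11.5 and bcl2fastq 1.8.4. They give GRCm38 and mm10 as the builds. The authors deposited RPKM values; the sources used here give no gene lengths, annotation or strand setting. RPKM scales by read total only, so a few abundant genes can shift all others.

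Whole reads and read totals were recovered from the steps of the RPKM values. Of the 14459 genes with a value in at least 3 libraries, 14457 came out whole within 0.001 reads. A divisor shared by the reads and length of a gene is invisible here, so read numbers can be too low. For a listed 0 the limit is 3 reads, equal to 0.0601 and 0.0368 RPKM for 1 kb in Six2 replicates 1 and 2 and 0.0696 and 0.0716 RPKM in control replicates 1 and 2, for counting error only.

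Groups came from the sample titles. limma 3.58.1 in R 4.3.3 fitted log2(RPKM + 1) on group with trended variances over the 10654 genes that reached 1 RPKM in 2 or more libraries, two-sided, with Benjamini-Hochberg adjustment at 0.05. The alternatives were other pseudocounts (0.1, 0.5), filters, scaling factors, voom, a replicate block, chromosome medians removed, no variance trend and each library left out. Members and gene lists were chosen with earlier results of these data known. Of the pathway lists, all other ligand, receptor, HES and HEY genes were named beside the members. From each other list the called genes and the 3 of highest mean were named. Mfng, as a relative of Lfng, and Psen2 were named outside this rule with their values seen. Positions come from GENCODE M21 on GRCm38, which named 96.3% of the tested genes, and promoter windows from RefSeq.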

Additional observations from a re-analysis of the deposited data

How the results depend on the processing

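With all 4 libraries 3 genes were called higher and 9 lower. No filter on low values left 0 and 0 (smallest limma adjusted p = 0.0519, with 2503 genes at an unadjusted p under 0.05, over 16679 genes). Relative log expression factors gave 24 lower, TMM factors 5 higher and 27 lower, and no variance trend 31 lower; the cause was not tested. Leaving out 1 library gave 2 to 18 higher and 9 to 50 lower, the lone library of a group being assumed to vary like the others. Among the other Notch pathway genes 0 were called under each of these settings.

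Same-numbered libraries deviated together across 10654 genes (r = 0.818), but the labels do not say what a number shares. With the replicate number as a block, 2133 of the 10654 genes were called higher and 2506 lower. Of the 62 tested other Notch pathway genes 11 were called higher and 9 lower, and neither share exceeded that over all tested genes.

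Over the 15 alternatives, the difference ran from -3.00 to -1.89 for Dll1, -2.31 to -1.17 for Nrarp, -1.53 to -0.95 for Lfng and -1.26 to -0.91 for Dtx4. The lower ends are from voom for Dll1, Nrarp, Lfng and Dtx4. Notch3, at -0.11, was 0.10 with chromosome medians removed and 0.02 at its highest with 1 library left out. For genes of few reads, such as Jag2 and Notch3, depth limits what can be seen.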
